A study of Rattus norvegicus with 10 samples.

Results

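Nrf2 targets and glutathione-dependent antioxidant enzymes were examined in rat macrophages that had taken up myelin. The group was defined by gene symbol in the array annotation and comprised glutathione transferases, glutathione peroxidases, peroxiredoxins, superoxide dismutases, thioredoxin family genes and 14 further genes of the Nrf2 response. It held 77 of the 31042 probe sets tested, and these stood for 66 of 14217 genes with a probe set of a single symbol. Metallothionein gene Mt1a and peroxiredoxin gene Prdx1 had no probe set that carried their symbol alone, and 2 probe sets that list a further gene beside a symbol of the group were left out.

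Control macrophages (5 samples) and mye-macrophages (5 samples) were both resident peritoneal cells of Hsdcpb:WU (Wistar) rats, enriched by adherence. Mye-macrophages received 100 µg/ml of rat brain myelin during 3 days of culture and control macrophages none, and both groups then received IFNγ and IL-1β (100 ng/ml) for 9 hours, so every value below comes from cytokine-stimulated cells. The labels give a body weight but no age, and leave unsaid whether each sample is an animal or culture of its own, so the p-values describe these samples alone. Those of the main fit are set against the spread of the differences between samples with the same replicate number. No group was left without cytokines, and an effect of myelin on resting cells cannot be read from these arrays.

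Nrf2, encoded by Nfe2l2, is a transcription factor that Keap1 holds in the cytoplasm and delivers to the proteasome. Oxidants and electrophiles modify Keap1, Nrf2 then accumulates in the nucleus, and with small Maf proteins it binds antioxidant response elements near genes for quinone reduction, glutathione synthesis and thioredoxin recycling. In macrophages this system buffers the reactive oxygen and nitrogen species that activated cells release.

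The authors deposited log2 RMA values, and a difference is given as mye-macrophages minus control macrophages on that scale. Groups were compared with limma, in which samples with the same replicate number formed a block and are called a pair, and p-values were adjusted over all 31042 probe sets. None of the 77 probe sets passed an adjusted p of 0.05 in this fit with the block, where 0.412% of all probe sets did. At an unadjusted p under 0.05 there were 17 of 77 (22.1%), against 12.1% of all probe sets. Of these, 10 were lower in mye-macrophages (6.62% of all probe sets were) and 7 higher (5.51%). Limma without the block and the methods' t-test called 0 of all 31042 probe sets, and therefore 0 of 77. At an unadjusted p under 0.05 they had 2 and 0 of 77 (4.46% of all probe sets without the block). The count of the t-test over all probe sets is given in the last section.

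Differences in this group were small and ran both ways. Over the 66 genes, each represented by its brightest probe set, 35 lay above 0 and 31 below, with a median of 0.01 (0.00 over all probe sets) and a range from -0.46 for Nqo1 to 0.27 for Mgst3. The 95% interval of the difference lay within ±0.5 for 63 of the 66 genes. In 9 of 77 probe sets the signal was lower in every pair, which held for 6.59% of all probe sets, and in 6 it was higher in every pair (6.16% of all). Together 15 of 77 went 1 way in every pair, against 12.8% of all probe sets. By gene, 14 of 66 had an unadjusted p under 0.05, against 12.6% of all genes taken by their brightest probe set. The groups overlapped on all 77 member probe sets, while 0.734% of all probe sets had no overlap between the groups.

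**Figure D1:**
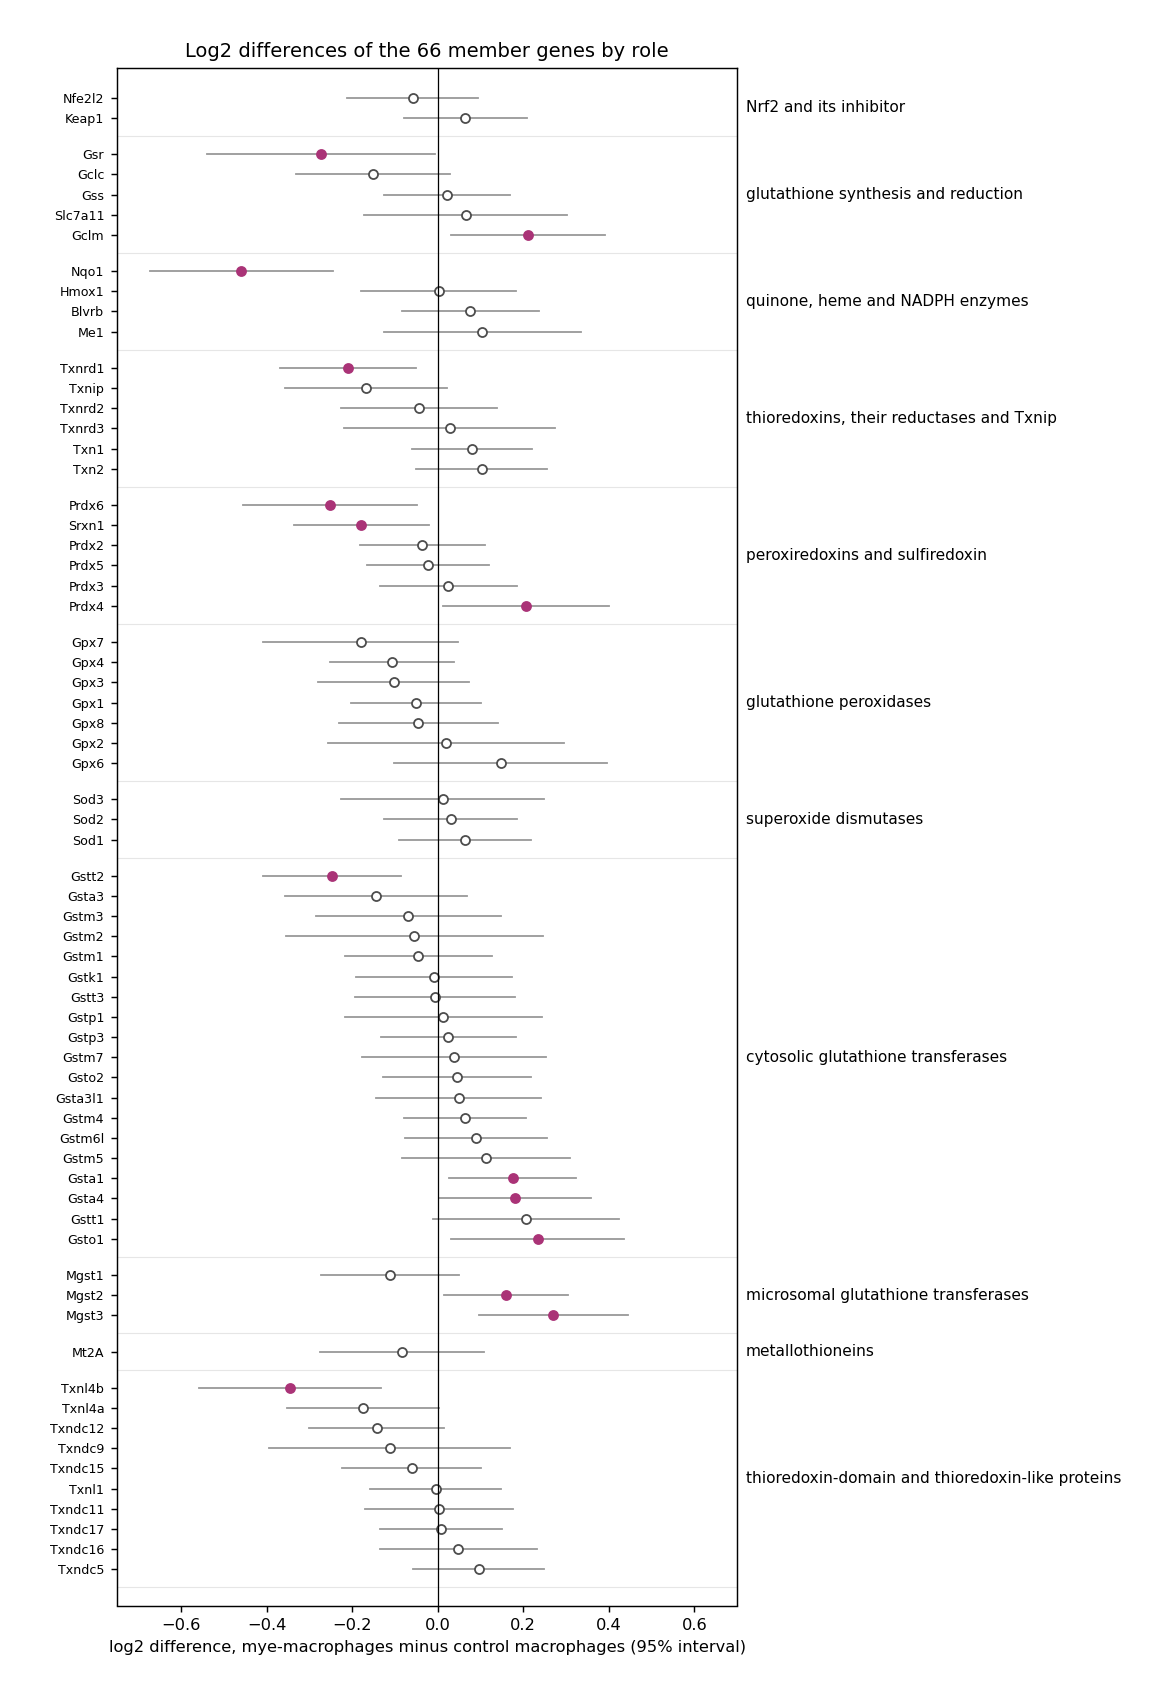
Log2 difference between mye-macrophages and control macrophages for the 66 genes, 1 point per gene by its brightest probe set, with its 95% interval from limma as a line and genes ordered by role. Filled points (14 genes) had an unadjusted p under 0.05. None passed after adjustment, Nqo1 lies farthest left at -0.46 and Mgst3 farthest right at 0.27.

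Nqo1, which encodes the quinone reductase that is the most widely used readout of Nrf2, had the largest difference among the genes. Its log2 signal was 9.05, 9.35, 9.66, 9.33 and 9.42 in control replicates 1 to 5 and 8.40, 8.56, 9.40, 9.10 and 9.05 in mye-macrophage replicates 1 to 5. Every pair was lower with myelin, by 0.23 to 0.79, although the groups overlapped because mye-macrophage replicates 3, 4 and 5 lay at or above control replicate 1, the lowest control. The difference was -0.46 (1.37-fold lower, standard error, SE, 0.10, limma adjusted p = 0.0810), and a two-sided exact permutation test over samples that ignores the pairs gave p = 0.0873. Nqo1 passed when p-values were adjusted over the more variable 50% of probe sets alone (limma adjusted p = 0.0405, 2.69% of these probe sets called). The filter ranked probe sets by interquartile range and had the size that the methods name. It used the samples of both groups and is not independent of a moderated test, which limits each result given over it. Nqo1 also passed with an intensity trend and a robust prior (limma adjusted p = 0.00728). Without the block limma gave an adjusted p of 0.996.

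Txnrd1, the cytosolic thioredoxin reductase and another classical Nrf2 target, pointed the same way on both of its probe sets. On the brightest, control replicates 1 to 5 had log2 signals of 8.63, 9.01, 8.62, 8.69 and 8.61, and mye-macrophage replicates 1 to 5 had 8.23, 8.80, 8.51, 8.56 and 8.42. All mye-macrophage samples but replicate 2 lay below the lowest control, and every pair was lower with myelin. The difference was -0.21 (SE 0.07, limma adjusted p = 0.273). A dimmer probe set read 6.26, 6.54, 6.40, 6.45 and 6.34 in control replicates 1 to 5 and 5.49, 6.35, 6.12, 6.36 and 5.98 in mye-macrophage replicates 1 to 5. Its difference was -0.34 (SE 0.10, limma adjusted p = 0.206; two-sided exact permutation p = 0.0556), and mye-macrophage replicate 1 lay far below the rest.

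Because Txnrd1 had this direction on both probe sets and is a textbook Nrf2 target, 250 bases before one of its transcript starts are shown (RefSeq, GRCr8, chr7:22755905-22756154, minus strand). Of 2 Txnrd1 starts searched, this is the one with a match to the motif below, and the other had none. Capitals mark the only match to the core of the antioxidant response element, TGACNNNGC, which lies on the opposite strand and therefore reads as its reverse complement.
Txnrd1: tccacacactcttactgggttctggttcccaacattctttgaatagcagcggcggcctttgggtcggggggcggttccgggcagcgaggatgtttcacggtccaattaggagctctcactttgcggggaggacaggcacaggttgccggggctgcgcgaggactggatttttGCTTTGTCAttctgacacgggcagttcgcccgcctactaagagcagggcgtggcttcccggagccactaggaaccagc

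The core was searched on both strands in windows from 250 bases before to 50 after each transcript start. Of the 66 genes, 56 had a window, and 18 of these (32.1%) held a match, as did 13.1% of all 27457 genes with a window. Membership was fixed by gene name for a family known for such elements, so this share describes the group and was not tested. Among genes with an unadjusted p under 0.05, a match was present in 2 of 4 genes on the lower side and in 3 of 6 on the higher side. No entry was found for Gpx8, Gsr, Gstm6l, Gstt1, Gstt2, Hmox1, Mgst2, Prdx6, Sod3 and Txnip. The 5 genes with a match and an unadjusted p under 0.05 are shown to let the elements of genes on either side of 0 be compared, each read on the strand that spells TGACNNNGC, with the match in capitals and its flanking bases in lower case.
Txnrd1 (difference -0.21, chr7:22755964-22755992, plus strand): cgtgtcagaaTGACAAAGCaaaaatccag
Txnl4b (difference -0.35, chr19:54442382-54442404, plus strand): actgcagaatTGACAGTGCcaac
Gclm (difference 0.21, chr2:213031953-213031981, minus strand): tggaagacaaTGACTAAGCagaaaccgca
Gsta1 (difference 0.18, chr9:31216484-31216512, minus strand): aactcaggcaTGACTTTGCatttttcttc
Prdx4 (difference 0.21, chrX:43878742-43878770, minus strand): cacgtttccaTGACCAAGCgagcacgaaa
The matches of Txnrd1 and Gclm begin 78 and 172 bases before the transcript start, and those of the other 3 genes lie after it. None of the 5 holds the AP-1 motif TGACTCA, which the core can contain and which the matches of Gstp1, Me1 and Mt2A do contain. The windows of Nqo1, Srxn1 and Keap1 held no match, which says only that these letters are not in that stretch.

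Regulators of the pathway themselves showed little difference. Nfe2l2 had log2 signals of 9.04, 9.26, 9.14, 9.13 and 9.13 in control replicates 1 to 5 and 8.88, 9.10, 9.15, 9.17 and 9.10 in mye-macrophage replicates 1 to 5, a difference of -0.06 with a 95% interval from -0.21 to 0.09. Transcript abundance of Nfe2l2 is no measure of Nrf2 activity, which is set at the level of the protein. Keap1 read 6.42, 6.85, 6.43, 6.19 and 6.46 in control replicates 1 to 5 and 6.54, 6.90, 6.43, 6.22 and 6.58 in mye-macrophage replicates 1 to 5 on its brightest probe set. Each pair was higher with myelin, by at most 0.12, while the pair means spanned 0.67, and the difference was 0.06 (interval -0.08 to 0.21). Another Keap1 probe set, under the median of all values, had -0.35 (interval -0.69 to -0.02, limma adjusted p = 0.389), with pair differences from -1.10 in pair 1 to 0.08 in pair 4.

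In glutathione synthesis, the subunits of a single enzyme had differences of opposite sign. Glutamate-cysteine ligase makes the first and rate-limiting step of glutathione synthesis and consists of a catalytic subunit, Gclc, and a modifier subunit, Gclm. For Gclm, control replicates 1 to 5 read 5.41, 5.61, 5.05, 4.86 and 5.36 and mye-macrophage replicates 1 to 5 read 5.89, 5.69, 5.13, 5.16 and 5.47 (log2). Each pair was higher with myelin, by 0.08 to 0.48, and the difference was 0.21 (SE 0.08, limma adjusted p = 0.332). Gclc read 6.73, 7.06, 6.73, 6.48 and 7.08 in control replicates 1 to 5 against 6.41, 6.96, 6.65, 6.55 and 6.73 in mye-macrophage replicates 1 to 5. It was lower in 4 of 5 pairs, with differences of -0.15 and, on a dimmer probe set, -0.33 (limma adjusted p = 0.495 and 0.330). Neither subunit passed the adjusted test.

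Other steps of the glutathione cycle gave similarly small values. Gss, which completes glutathione, had a difference of 0.02 (interval -0.13 to 0.17). Gsr, the reductase that regenerates it, read 3.86, 3.97, 4.08, 3.78 and 4.18 in control replicates 1 to 5 and 3.12, 3.64, 4.10, 3.89 and 3.76 in mye-macrophage replicates 1 to 5. Its difference was -0.27 (limma adjusted p = 0.399), with lower values in pairs 1, 2 and 5 (-0.74, -0.33 and -0.43). Mye-macrophage replicate 1 was lowest of all samples, and the difference was -0.16 without pair 1.

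Slc7a11, the cystine carrier that supplies cysteine for glutathione, varied more across replicate numbers than any other member. Its log2 signal was 5.67, 4.43, 7.01, 8.22 and 5.92 in control replicates 1 to 5 and 5.86, 4.69, 6.95, 8.55 and 5.53 in mye-macrophage replicates 1 to 5. Samples numbered 4 were highest and samples numbered 2 lowest in both groups, and the pair means spanned 3.82 (14.1-fold). Within pairs the values stayed within 0.39 of each other, and the difference between groups was 0.07 (interval -0.17 to 0.30). The labels do not say what a number stands for. Some cell type markers had the same order, with samples numbered 4 highest and samples numbered 2 lowest in both groups. The mast cell genes Cpa3 and Fcer1a had pair means that spanned 4.95 and 4.40 (log2, 30.8-fold and 21.1-fold), and the macrophage gene Mrc1 spanned 3.83. The fibroblast gene Dcn (4.10) was also highest in samples numbered 4 but lowest in those numbered 1. The macrophage genes Cd14, Itgam, Fcgr1a and Cd68 were also highest in samples numbered 4 and lowest in those numbered 2, in both groups. Their pair means spanned 1.96, 1.32, 0.93 and 0.25. Not all markers had this order. The macrophage gene Lyz2 was lowest in samples numbered 4 (12.04 in control macrophages and 11.93 in mye-macrophages), and pair means of the mast cell gene Kit spanned 0.07. The part of cell types or cell states in the Slc7a11 values, be it of macrophages, mast cells or fibroblasts, was not tested.

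**Figure D2:**
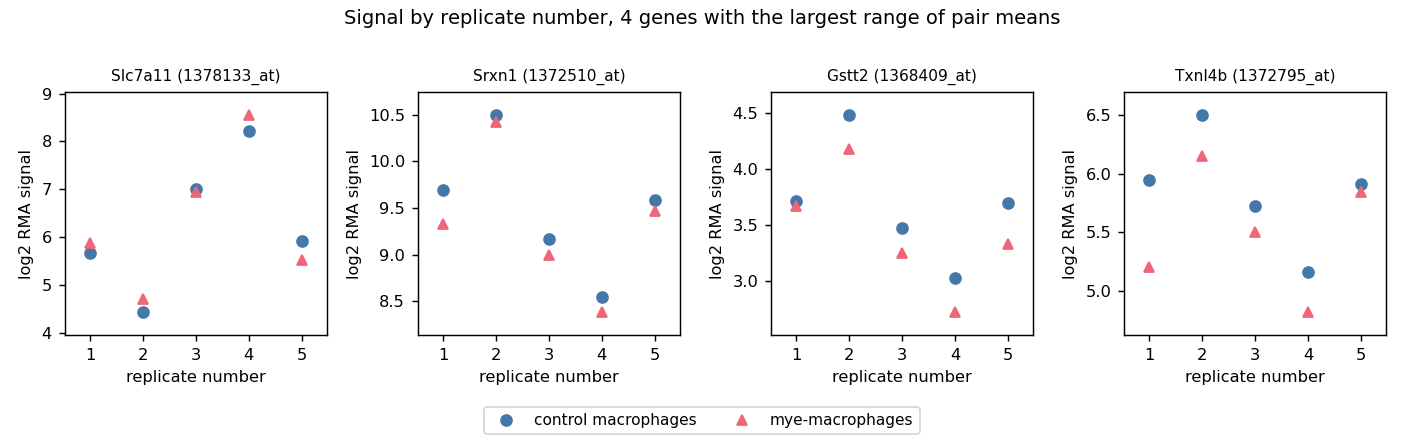
Log2 RMA signal by replicate number in control macrophages (circles) and mye-macrophages (triangles) for the 4 genes with the largest range of pair means, which were Slc7a11, Srxn1, Gstt2 and Txnl4b. In Slc7a11 the samples numbered 4 lie highest (8.22 and 8.55) and those numbered 2 lowest (4.43 and 4.69), and in the other 3 genes the order is turned.

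Srxn1, the sulfiredoxin that repairs overoxidized peroxiredoxins, combined a small difference between groups with a wide spread across pairs. Its brightest probe set read 9.69, 10.49, 9.17, 8.54 and 9.58 in control replicates 1 to 5 and 9.32, 10.42, 9.00, 8.39 and 9.47 in mye-macrophage replicates 1 to 5. The samples numbered 2 were highest and those numbered 4 lowest in both groups, the reverse of Slc7a11, and the pair means spanned 1.99 (3.98-fold). Every pair was lower with myelin, by 0.07 to 0.37, with a difference of -0.18 (SE 0.07, limma adjusted p = 0.349). Without the block this difference could not be told from the spread of the samples (unadjusted p = 0.656 and adjusted p = 0.997, both from limma). A dimmer probe set had -0.49 (interval -0.98 to 0.00), with pair differences from -1.52 to 0.19, and the dimmest had -0.08.

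Across the 66 genes, the range of the 5 pair means was larger than the difference between groups for 65, and the same held for 96.5% of all probe sets. The median range was 0.50 and the median size of the difference 0.08 (log2). Besides Slc7a11 and Srxn1, pair means spanned more than 1 log2 unit for Gstt2 (1.45), Txnl4b (1.33), the malic enzyme gene Me1 (1.14), Gstm1 (1.05) and Prdx4 (1.01).

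**Figure D3:**
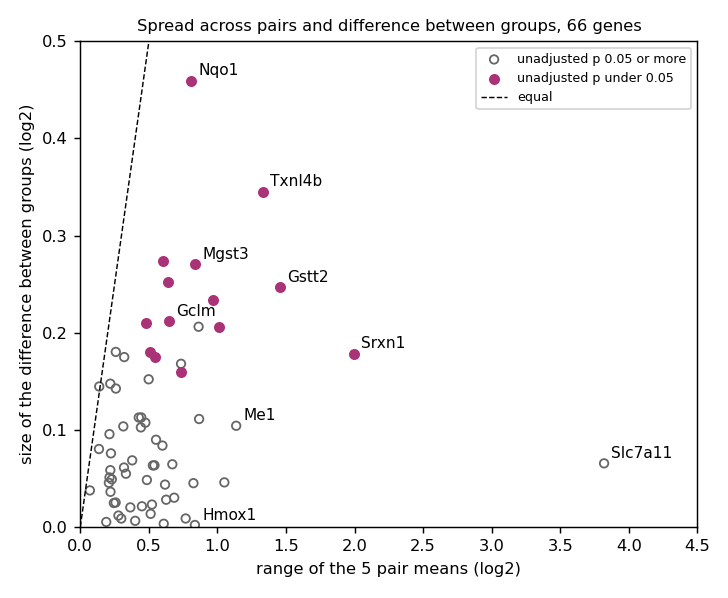
Size of the log2 difference between groups (vertical) against the range of the 5 pair means (horizontal, log2) for the 66 genes. The dashed line marks equal values. 65 genes lie to the right of it, and Slc7a11 lies farthest out at 3.82.

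Hmox1 encodes the inducible heme oxygenase and is another classical Nrf2 target. It read 11.19, 10.95, 10.29, 10.28 and 10.83 in control replicates 1 to 5 and 11.03, 11.19, 10.26, 10.42 and 10.66 in mye-macrophage replicates 1 to 5. Pairs went in either direction, and the difference was 0.00 with a 95% interval from -0.18 to 0.18. Blvrb, which reduces biliverdin and flavins, had 0.08 (interval -0.08 to 0.24), and the 2 probe sets of Me1, a source of NADPH, had 0.10 and 0.12. Metallothionein gene Mt2A had -0.08 (interval -0.28 to 0.11). The interval of Nqo1, from -0.67 to -0.25, did not meet that of Hmox1, but the difference between these genes was not tested.

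**Figure D4:**
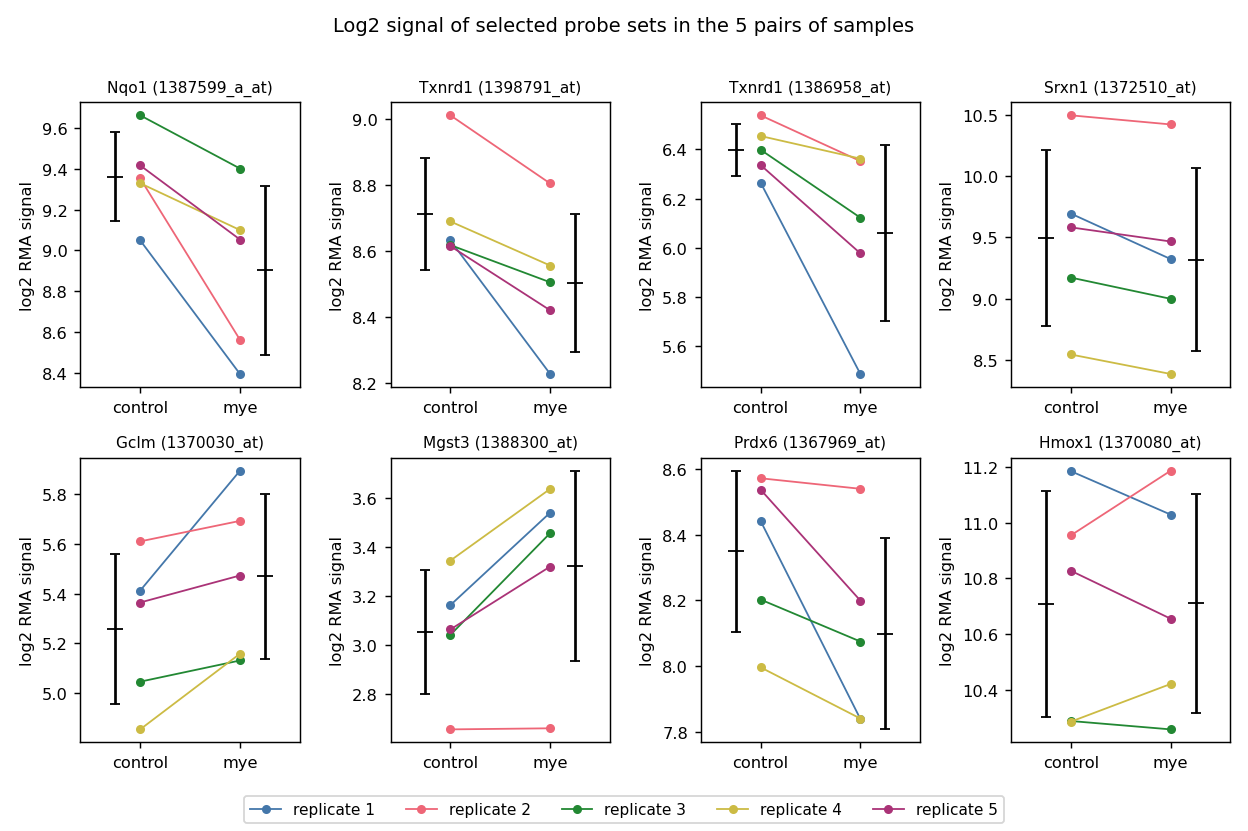
Log2 RMA signal of 8 probe sets in control macrophages (left) and mye-macrophages (right), with lines that join samples of the same replicate number and black bars for the mean ± SD of 5 samples. All 5 lines slope down for Nqo1, both Txnrd1 probe sets, Srxn1 and Prdx6, all slope up for Gclm and Mgst3 (by under 0.01 in pair 2 for Mgst3), and they cross for Hmox1.

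The thioredoxin branch outside Txnrd1 had small differences. Txn1, the cytosolic thioredoxin, had a difference of 0.08 (interval -0.06 to 0.22) and the mitochondrial Txn2 had 0.10 (interval -0.05 to 0.26). The reductases Txnrd2 and Txnrd3 had -0.04 and 0.03. Txnip, an arrestin-like protein that binds thioredoxin and limits glucose uptake, had -0.17 (interval -0.36 to 0.02, limma adjusted p = 0.471).

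Peroxiredoxins, which reduce hydrogen peroxide and lipid peroxides, showed opposite values for Prdx6 and Prdx4. Prdx6, the member that also acts on phospholipid hydroperoxides, read 8.44, 8.57, 8.20, 7.996 and 8.54 in control replicates 1 to 5 and 7.84, 8.54, 8.07, 7.84 and 8.20 in mye-macrophage replicates 1 to 5. All pairs were lower with myelin, and the difference was -0.25 (SE 0.09, limma adjusted p = 0.303) or -0.16 without pair 1. Prdx4, the form of the endoplasmic reticulum, read 6.58, 6.19, 6.55, 6.97 and 6.45 in control replicates 1 to 5 and 6.92, 6.03, 6.81, 7.26 and 6.75 in mye-macrophage replicates 1 to 5. It was higher in 4 of 5 pairs, with a difference of 0.21 (limma adjusted p = 0.382). Prdx2, Prdx3 and Prdx5 had differences from -0.04 to 0.03.

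Superoxide dismutases, which turn superoxide into hydrogen peroxide, had differences of 0.01 to 0.06. Sod2, the mitochondrial form and a gene that IL-1β induces through NF-kB, read 11.00, 10.50, 11.18, 11.24 and 10.94 in control replicates 1 to 5 and 11.18, 10.51, 11.15, 11.15 and 11.01 in mye-macrophage replicates 1 to 5. Samples numbered 2 were lowest in both groups, and the interval of the difference was -0.12 to 0.18. Among 7 glutathione peroxidase genes, none had an unadjusted p under 0.05, where 12.6% of all genes did. Of these 7, 5 lay in the dimmer part of the array, under the median of all values. Gpx1, the cytosolic enzyme, had -0.05 (interval -0.20 to 0.10), and Gpx4, which protects membranes from lipid peroxidation, had -0.11 (interval -0.25 to 0.04) with lower values in every pair, against 0.16 on a dimmer probe set.

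Glutathione transferases conjugate glutathione to electrophiles. At an unadjusted p under 0.05, 3 of 19 non-microsomal and 2 of 3 microsomal genes were higher, where 5.51% of all probe sets were. Microsomal Mgst3, a membrane enzyme of glutathione and leukotriene metabolism, read 3.16, 2.65, 3.04, 3.35 and 3.06 in control replicates 1 to 5 and 3.54, 2.66, 3.46, 3.64 and 3.32 in mye-macrophage replicates 1 to 5. The difference was 0.27 (1.21-fold, SE 0.08, limma adjusted p = 0.200), higher in 5 of 5 pairs. Mgst2 read 7.96, 7.81, 8.31, 8.60 and 8.30 in control replicates 1 to 5 and 8.20, 8.01, 8.46, 8.69 and 8.41 in mye-macrophage replicates 1 to 5, with a difference of 0.16 (limma adjusted p = 0.366) and higher values in every pair. Mgst1 had -0.11 (interval -0.27 to 0.05).

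Of 19 transferase genes outside the microsomal class, 12 had differences above 0 and 7 below, with a median of 0.04. An unadjusted p under 0.05 was found for 4 of the 19, where 12.6% of all genes had such a p. Gsta1, of the alpha class, read 8.38, 8.02, 8.18, 8.61 and 8.31 in control replicates 1 to 5 and 8.48, 8.29, 8.43, 8.77 and 8.41 in mye-macrophage replicates 1 to 5, a difference of 0.18 in the same direction in 5 of 5 pairs (limma adjusted p = 0.332). Gsto1, an omega-class enzyme, read 8.23, 8.20, 8.66, 8.91 and 8.58 in control replicates 1 to 5 and 8.62, 8.04, 8.92, 9.26 and 8.91 in mye-macrophage replicates 1 to 5, a difference of 0.23 (limma adjusted p = 0.338). Replicate 2 was the exception among its pairs.

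Gstt2 of the theta class pointed the other way. It read 3.71, 4.48, 3.47, 3.03 and 3.69 in control replicates 1 to 5 and 3.67, 4.17, 3.25, 2.72 and 3.33 in mye-macrophage replicates 1 to 5, with a difference of -0.25 (SE 0.07, limma adjusted p = 0.206) and lower values in every pair. A dimmer Gstt2 probe set had 0.14. Gsta4, at 1.57, 1.02, 1.35, 1.32 and 1.12 in control replicates 1 to 5 and 1.75, 1.28, 1.57, 1.22 and 1.47 in mye-macrophage replicates 1 to 5, lay under the median of all values (2.32), as did 10 of the 19 genes, and for such probe sets a difference may understate a change. Transferases of a class are similar in sequence, and probes of one gene may take up transcripts of another. Gstp1, the pi-class enzyme, had a difference of 0.01 (interval -0.22 to 0.24) and Gstm1 had -0.05 (interval -0.22 to 0.13).

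Thioredoxin-domain and thioredoxin-like genes entered the group by name, and not all are antioxidant enzymes. Txnl4b and Txnl4a encode proteins of the spliceosome. Txnl4b had the second largest difference of the 66 genes, with 5.95, 6.50, 5.73, 5.16 and 5.92 in control replicates 1 to 5 and 5.21, 6.15, 5.50, 4.82 and 5.85 in mye-macrophage replicates 1 to 5. All pairs were lower with myelin, and the difference was -0.35 (SE 0.10, limma adjusted p = 0.179). Txnl4a had -0.17 (interval -0.35 to 0.00), and the other 8 genes of this kind had differences from -0.14 to 0.10.

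Among 49 measured genes of the wider Nrf2 pathway that are no members of the group (small Maf and Bach factors, carriers, carbonyl reductases, sestrins and enzymes of NADPH supply), 0 passed the adjusted p of limma, 10 had an unadjusted p under 0.05 (4 higher, 6 lower) and the median difference was 0.01. Over all genes taken by their brightest probe set 12.6% had such a p, and over all probe sets 5.51% were higher and 6.62% lower. After adjustment over the more variable 50% of probe sets, of which 2.69% passed, 3 pathway genes did. Blvra, the biliverdin reductase that acts downstream of heme oxygenase, read 7.47, 7.37, 7.50, 7.87 and 7.27 in control replicates 1 to 5 and 8.19, 7.73, 7.96, 8.17 and 7.63 in mye-macrophage replicates 1 to 5, a difference of 0.44 (adjusted p = 0.0273 over the filtered and 0.0546 over all probe sets from the blocked limma fit). Abcc5, an export pump for organic anions, had 0.37 (adjusted p = 0.0372 and 0.0744 in the same order from limma). Osgin1, an oxidative stress-induced growth inhibitor and Nrf2 target, had -0.40 (limma adjusted p = 0.0450 and 0.0899). Each of the 3 went the same way in 5 of 5 pairs. Hmox2, the constitutive heme oxygenase, had -0.09 (interval -0.25 to 0.06).

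RNA quality and other cell types were set beside these values. The gap between the 3 prime and 5 prime control probe sets of beta-actin, which widens as RNA degrades, had a mean of 3.02 ± 0.30 (SD) over 5 control samples and 3.30 ± 0.32 over 5 mye-macrophage samples (log2; p = 0.190 by a two-sided exact permutation test). It was wider in mye-macrophages by 0.82 in pair 1, 0.45 in pair 2 and 0.29 in pair 5, with differences of 0.0014 in pair 4 and -0.21 in pair 3. Pair 1 also held the most negative difference of Gsr (-0.74) and of the dimmer probe sets of Gclc (-0.87), Keap1 (-1.10) and Srxn1 (-1.52), whose differences in pairs 3 and 4 lay between -0.03 and 0.19. The same pair was the most negative for both Txnrd1 probe sets (-0.40 and -0.78), Prdx6 (-0.60), Txnl4b (-0.74) and the brightest Srxn1 probe set (-0.37). Gstt2 and the brightest Gclc probe set were most negative in pair 5 (-0.36 and -0.34). Nqo1 had its largest pair differences in pairs 2 and 1 (-0.79 and -0.65). With this gap as a covariate in the fit the difference was -0.32 for Nqo1, -0.14 for Txnrd1, -0.15 for Prdx6, -0.07 for Gclc, -0.05 for Gsr and -0.23 for Txnl4b, and 0.30 for Mgst3.

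The macrophage label was borne out by its markers, as Lyz2, Cd68, Cd14 and Itgam were bright and only Cd163 of 10 markers lay under the median of all values. None of the 10 passed over all probe sets, while Mrc1, the mannose receptor, had a difference of 0.71 with higher values in 5 of 5 pairs and passed over the more variable 50% (limma adjusted p = 0.0530 and 0.0265). The log2 of the summed signal of the markers was 13.01 to 13.46 in control macrophages and 13.16 to 13.56 in mye-macrophages. Of 11 markers of mesothelial cells and fibroblasts, 8 lay under that median (summed 5.18 to 6.74 in control macrophages and 5.11 to 6.77 in mye-macrophages, with Dcn from 2.37 to 6.22 and from 1.94 to 6.29), as did 4 of 5 markers of red blood cells (4.11 to 4.41 and 4.07 to 4.28). None of 8 markers of T, B and NK cells (5.36 to 5.80 and 5.15 to 6.22) and of 9 markers of granulocytes and mast cells (4.86 to 8.36 and 4.95 to 8.47) passed the adjusted p of limma, where 1 and 0 had an unadjusted p under 0.05. The width of the mast cell range went with the replicate number, as Cpa3 was 7.92 and 7.99 in samples numbered 4 and 3.19 and 2.83 in those numbered 2. Of 8 markers of oligodendrocytes and myelin, each by its brightest probe set, 2 were higher in mye-macrophages (Mobp and Bcas1, limma adjusted p = 0.00386 and 0.00667). The summed signal was 7.40 to 7.67 in control macrophages and 7.67 to 8.11 in mye-macrophages. Mbp had -0.20 on its brightest probe set (limma adjusted p = 0.504). The authors list a different Mbp probe set as the most upregulated in mye-macrophages, and neither the count nor the sum includes it. They state that RNA carried in with the myelin did not cause that rise, as the myelin held negligible RNA (data not shown). Of 6 astrocyte markers, 3 lay above 0 and 3 below. Slc1a3 was the only 1 that passed (0.91, limma adjusted p = 0.0494), while Gja1 had -0.62 (limma adjusted p = 0.267). The part of myelin-derived transcripts in the values of the antioxidant genes was not tested, and fewer cells of a type and less RNA per cell cannot be told apart in bulk samples.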

How the data were processed

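RNA of 10 samples was hybridized by the authors to Affymetrix rat genome-wide expression arrays, 1 per sample. The deposited values are log2 RMA signals made by the authors with the affy package, whose version is not given in the sources used here. Array medians of 2.30 to 2.34 are low for RMA, so levels are read only within these arrays. Control probe sets (57) were left out. The array annotation gave 1 symbol to 20826 of 31042 probe sets, 436 had several and 9780 none; the 66 member symbols matched current RefSeq symbols by gene ID.

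Groups were compared with limma 3.58.1 (R 4.3.3; lmFit, eBayes) with the replicate number as a block, although the methods name an unpaired test, and Benjamini-Hochberg adjustment ran over all tested probe sets. The numbers pair the samples: deviations from the group means correlated at 0.404 to 0.791 for the same number and at most 0.279 otherwise, over all tested probe sets. The fit was tested on simulated data. Single values also had an exact permutation test over 252 splits. The number of arrays limits the precision. Per-sample values are given for members with an adjusted p under 0.05 (also over the variance-filtered probe sets), for genes whose brightest probe set had an unadjusted p under 0.05, and for the named regulators and markers. Members and lists were chosen with earlier results of these data known. Alternatives covered the block, filters, scaling, array weights, the prior and each pair left out.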

Additional observations from a re-analysis of the deposited data

Results flagged for a closer look

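Of 40 groups of 5 samples examined for the probe sets with per-sample values, 3 held a sample that stood apart by Dixon's criterion, and chance gives about 1 in 20 such groups. For Nfe2l2, mye-macrophage replicate 1 lay at 8.88, with the next sample of its group at 9.10. For Sod2, mye-macrophage replicate 2 lay at 10.51, with the next at 11.01, and control replicate 2 was also lowest in its group. On the brightest Txnrd1 probe set, control replicate 2 lay at 9.01, with the next control sample at 8.69.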

How the results depend on the processing

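The median difference of the 66 genes stayed between -0.02 and 0.01 under all alternatives run. The number of member probe sets called was 0 in the blocked fit and 1 (Nqo1) over the more variable 50% of probe sets and with the trend and robust prior, and 0 under every other setting. Over all probe sets, 128 were called with the block, and 0 with no replicate block, with the methods' t-test over all or over the filtered probe sets, and without the block over the filtered probe sets, where 1385, 1437, 778 and 1032 had an unadjusted p under 0.05. The count was 5 with a random block, 418 over the filtered probe sets, 242 above the median signal, 239 with array weights, 648 with the trend and robust prior, 3 with the beta-actin gap in the fit and 11 to 300 with a pair left out (15, 11, 300, 25 and 14 without pairs 1 to 5). Of the 49 pathway genes, 3, 2, 1, 4 and 1 were called over the filtered probe sets, above the median signal, with array weights, with the trend and robust prior and with the mean of all probe sets of a gene, against 0 otherwise. Differences near 0 changed sign for Hmox1 (-0.050 after quantile normalization, -0.0025 with array weights, and -0.056 to 0.045 with a pair left out), Sod2 (-0.029 with the beta-actin gap, -0.0079 to 0.059 with a pair left out) and Slc7a11 (-0.00014 to 0.18 with a pair left out). The causes were not tested. The covariate and the fits that combine no block with the filter were chosen after seeing the data. The beta-actin gap differed by 0.13 to 0.39 with a pair left out.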
